A study of Mus musculus with 18 samples.

Results

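The CCN family and its mechanosensitive neighbours were followed in 18 arrays of mouse aorta: Ccn1 (Cyr61), Ccn2 (Ctgf), Ccn3 (Nov), Ccn4 (Wisp1), Ccn5 (Wisp2), thrombospondin 1 (Thbs1) and Ankrd1. These 7 genes were chosen by name, 5 CCN genes together with 2 further genes that respond to YAP, and they are 7 of the 12393 genes that have a probe set annotated to 1 gene. They hold 12 such probe sets, and all 12 were examined. A low-value filter, a log2 value above 4 in at least 3 of the 18 samples, was passed by 9 of the 12 probe sets and 6 of the 7 genes, Ankrd1 being below it; 7092 genes of the array passed in all. They were named with earlier results of the same arrays known.

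CCN proteins are secreted, cysteine-rich matricellular proteins: they sit in the extracellular matrix, bind integrins and heparan sulphate proteoglycans, and alter how cells answer growth factors rather than acting as structural fibres. Ccn1 and Ccn2 are classic targets of YAP and TAZ, transcriptional co-activators that are held in the cytoplasm by the Hippo kinases and that, in stretched or spread cells, enter the nucleus and act through TEAD factors. In the artery wall, Ccn2 is known for its association with fibrosis and Thbs1 for activating latent TGF-beta and for signalling through CD47 and CD36. Aldosterone is the natural agonist of the mineralocorticoid receptor, a steroid-activated transcription factor that vascular smooth muscle and endothelium contain.

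The animals were male C57Bl/6 mice that had all carried a subcutaneous spironolactone pellet, 20 mg/kg/day for 5 days, so every group came from tissue exposed to an antagonist of that receptor. Excised aortas were held in organ culture in DMEM containing either aldosterone, at 100 nM, or its vehicle, and were collected after 2, 4 or 8 h. There were 3 samples in every combination of treatment and time (6 groups), and each sample was a pool of 3 aortas. No aorta taken before culture was analysed here, so the earliest level is that at 2 h, and the tissue is whole aorta with its mixed cells.

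The values are log2 expression estimates, and a difference of 1 is a 2-fold difference. All 9 smooth muscle markers and 8 of 9 endothelial markers passed the filter, and none of 6 skeletal muscle markers did. All 7 fibroblast and all 7 macrophage markers passed too, as did 5 of the 6 adipocyte markers on the array and 4 of 7 cardiac muscle markers. Correlations between samples lay between 0.842 and 0.993 over the genes tested. Vehicle 2 h replicate 1 stood apart: its median signal was 4.42, the other 17 samples lay between 4.01 and 4.09, and 908 of 7092 genes in it were more than 1 from the mean of its group mates. Aldosterone 8 h replicate 3 stood apart in cardiac muscle markers. For some of the results that use either sample, values without it are given too.

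Promoter sequence illustrates what the YAP link of these genes refers to, and a RefSeq table (GRCm38.p6) held it for 2 of the 7 members, Ccn1 and Ankrd1. The 250 bases before the annotated start are shown 5′ to 3′ on the strand of the gene, which is the minus strand for both. Capitals mark matches to the TEAD motif GGAATG or its reverse complement CATTCC. The Ccn1 window is chr3:145649986-145650235 and the Ankrd1 window is chr19:36119845-36120094.
Ccn1: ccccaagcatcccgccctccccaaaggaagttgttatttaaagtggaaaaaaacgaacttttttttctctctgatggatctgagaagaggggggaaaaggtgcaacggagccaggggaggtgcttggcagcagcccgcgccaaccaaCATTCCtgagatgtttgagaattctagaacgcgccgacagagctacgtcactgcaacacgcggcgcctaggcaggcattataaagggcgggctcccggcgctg
Ankrd1: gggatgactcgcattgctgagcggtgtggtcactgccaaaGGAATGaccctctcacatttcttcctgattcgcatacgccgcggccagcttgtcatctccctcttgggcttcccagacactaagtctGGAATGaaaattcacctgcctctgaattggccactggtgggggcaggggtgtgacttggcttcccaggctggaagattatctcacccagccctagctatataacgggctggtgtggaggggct
The Ccn1 window held 1 match, at bases 103 to 98 before the start, and the Ankrd1 window held 2, at bases 210 to 205 and 123 to 118. Of 32851 promoters in the table, 12.6% held such a match in the same window, as did 4 of the 15 promoters listed for 13 other YAP and TAZ target genes. Neither window held the AP-1 motif TGANTCA (6.75% of all promoters), a CArG box (1.47%), or the steroid receptor palindrome of AGAACA and TGTTCT spaced by 3 bases (0.00913%), all searched on both strands. A match is a description of letters, not of binding.

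Ccn2, which promotes matrix production and binds TGF-beta, was the member that differed between aldosterone and vehicle. At 2 h it had log2 values of 14.39, 14.28 and 14.32 with aldosterone, against 14.36, 14.31 and 14.32 with vehicle. At 4 h it had 14.36, 14.56 and 14.46 with aldosterone, against 14.02, 13.91 and 13.94 with vehicle. At 8 h it had 13.88, 13.93 and 13.79 with aldosterone, against 12.84, 13.15 and 13.01 with vehicle. The groups overlapped at 2 h, and at 4 and 8 h each aldosterone pool lay above each vehicle pool. The difference, aldosterone minus vehicle, was -0.00 ± 0.09 at 2 h (SE; limma, adjusted p = 0.994 over 7092 genes). It was 0.50 ± 0.09 at 4 h, a 1.42-fold higher level (adjusted p = 0.0175), and 0.86 ± 0.09 at 8 h, a 1.82-fold higher level (adjusted p = 1.69e-05), with 3 pools per group. The 2 h value was bounded by a 95% interval of -0.18 to 0.18.

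Ccn2 fell in both arms late in culture, and by less with aldosterone over the whole course. From 4 h to 8 h it fell by 0.59 ± 0.09 with aldosterone (adjusted p = 4.68e-05) and fell by 0.96 ± 0.09 with vehicle (adjusted p = 3.62e-07); the difference between these falls, 0.36 ± 0.12, did not pass (adjusted p = 1). Between 2 h and 8 h the group mean of Ccn2 dropped by 0.46 with aldosterone, to a level 1.38-fold lower, and by 1.33 with vehicle, to a level 2.51-fold lower. The aldosterone difference at 8 h exceeded that at 2 h by 0.87 ± 0.12 (adjusted p = 0.00249), a comparison that called 0.197% of all genes, and a joint test of its differences between times gave an adjusted p of 0.00681. From 2 h to 4 h the aldosterone arm gave 0.13 ± 0.09 (adjusted p = 0.256) and the vehicle arm fell by 0.37 ± 0.09 (adjusted p = 0.00264), but the difference between these steps, 0.50 ± 0.12, did not pass (adjusted p = 0.386). In whole aorta, fewer cells of a type and less RNA per cell cannot be told apart.

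The call at 8 h and the call averaged over times (0.45 ± 0.05, adjusted p = 4.36e-05) held under each alternative run, with adjusted p at most 0.00848 and 0.00207. The call at 4 h was lost in 8 of 29 alternatives, among them centring each array on its median (adjusted p = 0.291) and leaving out aldosterone 4 h replicate 2 (0.141), while the difference itself lay between 0.45 and 0.55 in all 29. The joint test over times was lost without an intensity trend in the prior, with a second quantile normalization and with median centring (0.0943, 0.0657 and 0.269). Ccn2 was bright on these arrays, where the highest log2 value of any probe set was 15.34, and no saturation calls were used.

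**Figure D1:**
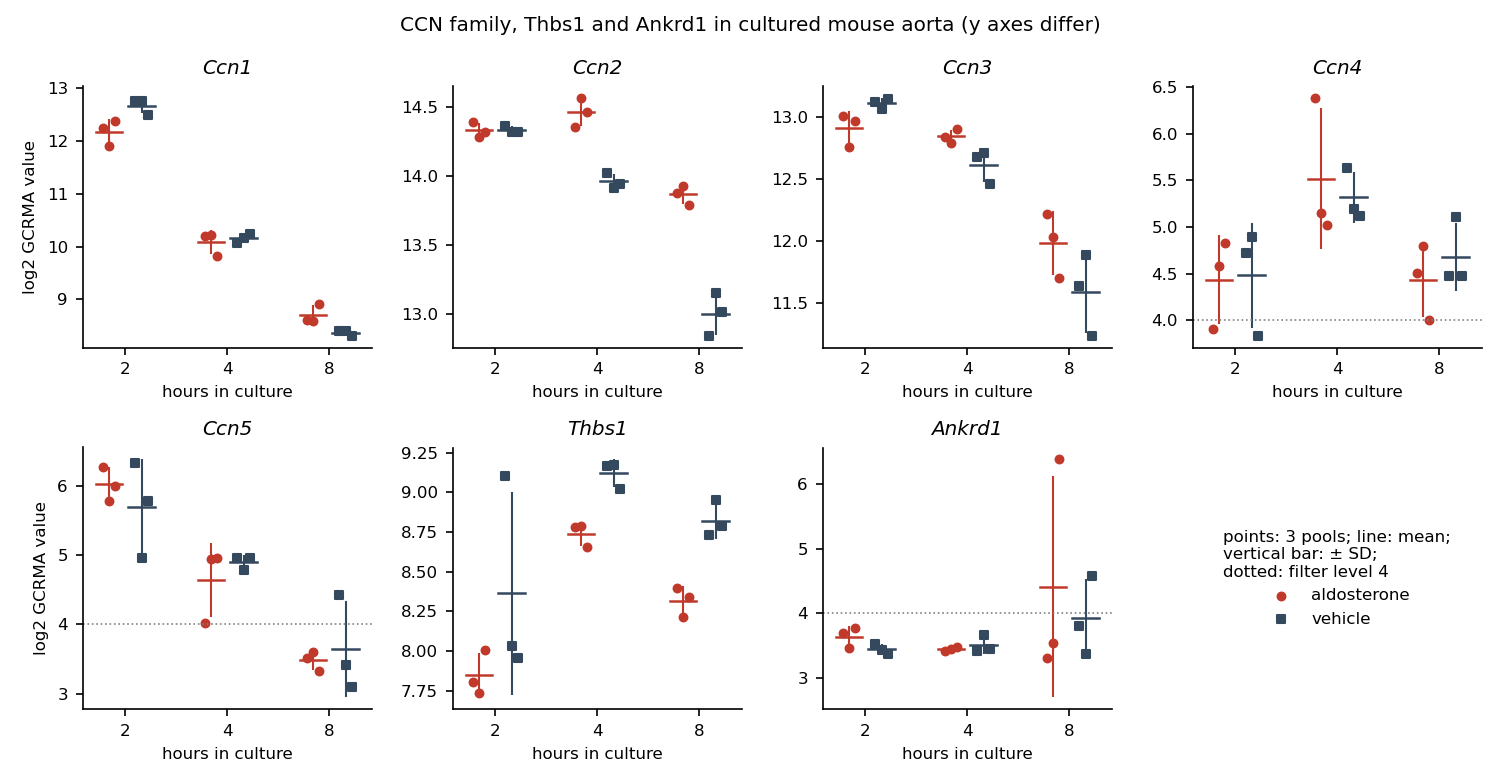
Log2 GCRMA value (y axis, a separate scale for each gene) against hours in culture (x axis) for the 7 genes, aldosterone to the left of vehicle at each time; points are the 3 pools of a group, horizontal lines the mean, vertical bars ± SD, and the dotted line the filter level of 4. Ccn1 and Ccn3 are lowest at 8 h in both arms, Ccn2 at 8 h lies at 13.79 to 13.93 with aldosterone and at 12.84 to 13.15 with vehicle, and the Ankrd1 panel has 1 pool at 6.39.

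Only this 1 of the 6 members passed at 4 h and at 8 h, and none passed at 2 h. An unadjusted p under 0.05 was reached by 2 members at 2 h (Ccn1 and Thbs1), where 782 of 7092 genes reached it, by 1 at 4 h (Ccn2; 267 genes) and by 4 at 8 h (Ccn1, Ccn2, Ccn3 and Thbs1; 444 genes). Over all 7092 genes the share called was 0.0705% at 2 h, 0.240% at 4 h, 1% at 8 h, 1.10% for the average and 0.155% for the differences between times. The median difference over the 6 members was -0.12, 0.06 and 0.09 at 2, 4 and 8 h, beside -0.07, 0.01 and 0.01 over all genes tested. As a check of the hormone's action, 3 corticosteroid-induced genes were higher at 4 h and 8 h: Zbtb16, a zinc finger repressor, by 1.80 and 2.82, Fkbp5, a co-chaperone of steroid receptors, by 1.90 and 2.80, and the clock gene Per1 by 1.41 and 1.49 (largest adjusted p = 0.0221). In vehicle all 3 fell from 2 h to 4 h: Zbtb16 fell by 0.77, Fkbp5 fell by 0.72 and Per1 fell by 1.97. From 4 h to 8 h, where vehicle Ccn2 fell by more, Zbtb16 fell by 1.65 in vehicle. The vehicle steps of Fkbp5 (0.48, adjusted p = 0.157) and Per1 (0.02, adjusted p = 0.969) did not pass in the limma fit. Which receptor lay behind the aldosterone differences of these genes and of Ccn2 was not tested.

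Ccn1, an immediate early gene whose product supports adhesion and migration, showed the steepest course of the family. At 2 h it had 12.25, 11.90 and 12.37 with aldosterone, against 12.76, 12.75 and 12.50 with vehicle. At 4 h it had 10.20, 10.23 and 9.82 with aldosterone, against 10.07, 10.17 and 10.25 with vehicle. At 8 h it had 8.61, 8.59 and 8.92 with aldosterone, against 8.40, 8.39 and 8.31 with vehicle. No sample of one time overlapped any sample of another. The level at 8 h was 11.1-fold lower than at 2 h with aldosterone and 19.7-fold lower with vehicle, as ratios of group means.

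Against its own arm at 2 h, Ccn1 at 4 h was lower by 2.09 ± 0.14 with aldosterone (adjusted p = 8.7e-09) and by 2.51 ± 0.14 with vehicle (adjusted p = 1.08e-09). The vehicle change was the 11th largest fall of 7092 genes in that step. From 4 h to 8 h it was lower by a further 1.38 ± 0.14 with aldosterone (adjusted p = 1.26e-06) and 1.79 ± 0.14 with vehicle (adjusted p = 6.98e-08). A second Ccn1 probe set gave the same order of times, with means of 10.65, 8.25 and 6.69 at 2, 4 and 8 h with aldosterone and 11.17, 8.20 and 6.35 with vehicle.

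On the brighter Ccn1 probe set the pools of the arms lay in opposite order at the ends of the course. Each aldosterone pool was below each vehicle pool at 2 h and above each at 8 h. On the second probe set the arms overlapped at 2 h (10.27 to 10.89 with aldosterone, 10.79 to 11.63 with vehicle) and were apart at 8 h. Its joint test of differences between times did not pass (limma over every probe set past the filter, adjusted p = 0.765). The values that follow are those of the brighter probe set. The differences were -0.50 ± 0.14 at 2 h (adjusted p = 0.221), -0.08 ± 0.14 at 4 h (adjusted p = 1) and 0.33 ± 0.14 at 8 h (adjusted p = 0.644), none past the threshold of 0.05. The 8 h difference minus the 2 h difference was 0.83 ± 0.20, with a 95% interval of 0.41 to 1.25, and it too missed the threshold after adjustment (unadjusted p = 0.000576, adjusted p = 0.132). The same change was 0.87 for Ccn2, where it passed.

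Ccn3, whose product is mostly known as a brake on proliferation and as a counterpart of Ccn2, fell late in both arms. At 2 h it had 13.00, 12.76 and 12.97 with aldosterone, against 13.12, 13.06 and 13.14 with vehicle. At 4 h it had 12.84, 12.79 and 12.90 with aldosterone, against 12.67, 12.71 and 12.46 with vehicle. At 8 h it had 12.22, 12.03 and 11.70 with aldosterone, against 11.64, 11.89 and 11.24 with vehicle. The arms did not overlap at 2 h, with aldosterone below, nor at 4 h, with aldosterone above, and they overlapped at 8 h. The differences of -0.20 ± 0.15, 0.23 ± 0.15 and 0.39 ± 0.15 at 2, 4 and 8 h had adjusted p of 0.635, 1 and 0.475. Its fall from 4 h to 8 h was seen in each arm: Ccn3 fell by 0.86 ± 0.15 with aldosterone (adjusted p = 0.000203) and by 1.02 ± 0.15 with vehicle (adjusted p = 3.73e-05). From 2 h to 4 h the aldosterone arm gave -0.07 ± 0.15 (adjusted p = 0.754) and the vehicle arm fell by 0.49 ± 0.15 (adjusted p = 0.0125), a call lost with median centring (0.0897) and without vehicle 4 h replicate 3 (0.0568). The aldosterone differences of a second Ccn3 probe set were -0.22, 0.26 and 0.39 at the 3 times.

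Among pools that did not overlap, the share over all genes gives the scale, each gene being read on its brightest probe set. At 2 h, 2 members (Ccn1 and Ccn3) had all aldosterone pools below all vehicle pools, as did 10.5% of the genes tested, and no member had them above (3.41% of genes). At 4 h, 2 members (Ccn2 and Ccn3) had them above (5.80%) and Thbs1 below (4.77%). At 8 h, 2 members (Ccn1 and Ccn2) had them above (9.11%) and Thbs1 below (5.36%).

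**Figure D2:**
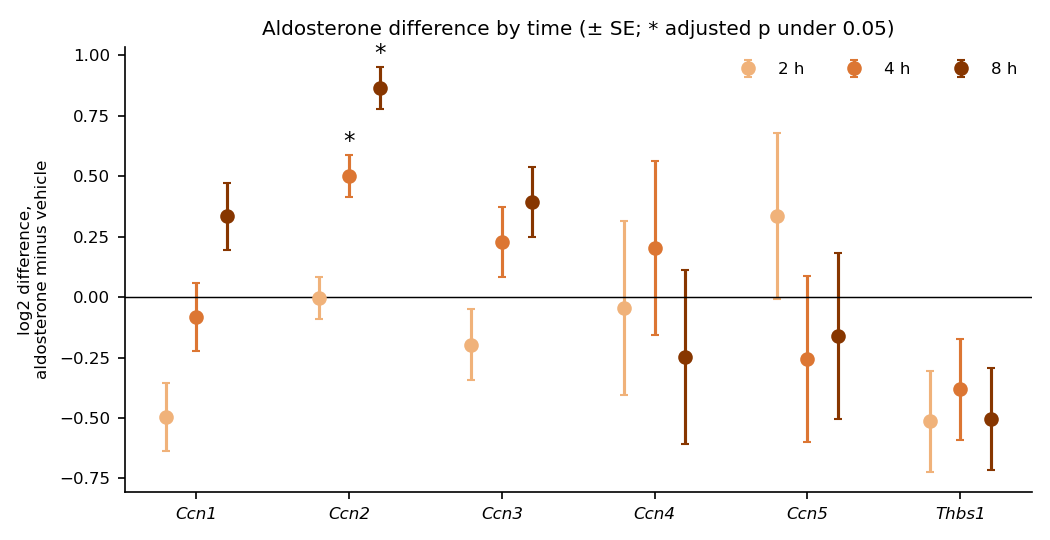
Difference in log2 value, aldosterone minus vehicle (y axis), for the 6 members tested (x axis) at 2, 4 and 8 h; points are the fitted differences of 3 against 3 pools, bars ± SE, and asterisks adjusted p under 0.05. Only the Ccn2 values at 4 h (0.50) and 8 h (0.86) carry an asterisk, and the 3 Thbs1 values lie between -0.51 and -0.38.

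Ccn4, a target of Wnt signalling whose product promotes proliferation, was dim and peaked at 4 h. At 2 h it had 3.90, 4.58 and 4.83 with aldosterone, against 4.72, 4.89 and 3.83 with vehicle. At 4 h it had 6.38, 5.15 and 5.02 with aldosterone, against 5.63, 5.19 and 5.12 with vehicle. At 8 h it had 4.51, 4.80 and 4.00 with aldosterone, against 4.47, 5.10 and 4.47 with vehicle. The arms overlapped at each time. With aldosterone, the 4 h level was higher than that at 2 h by 1.08 ± 0.36 and the 8 h level lower than that at 4 h by 1.08 ± 0.36 (adjusted p = 0.0246 for each); the vehicle steps of 0.83 ± 0.36 and -0.63 ± 0.36 did not pass (0.0733 and 0.18). Both aldosterone calls were lost without aldosterone 4 h replicate 1, the pool at 6.38 (adjusted p = 0.154 and 0.162). A second Ccn4 probe set was below the filter.

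Ccn5, which lacks the C-terminal domain of the other CCN proteins and is known as an inhibitor of smooth muscle growth, fell toward the floor of the array. At 2 h it had 6.28, 5.79 and 6.00 with aldosterone, against 6.34, 4.95 and 5.78 with vehicle. At 4 h it had 4.03, 4.95 and 4.95 with aldosterone, against 4.96, 4.78 and 4.96 with vehicle. At 8 h it had 3.52, 3.61 and 3.33 with aldosterone, against 4.43, 3.41 and 3.09 with vehicle. The arms overlapped at each time, and their differences of 0.33 ± 0.34, -0.25 ± 0.34 and -0.16 ± 0.34 did not pass (adjusted p = 0.74, 1 and 1), with 95% intervals as wide as -0.98 to 0.47 at 4 h. From 2 h to 4 h Ccn5 fell by 1.38 ± 0.34 with aldosterone (adjusted p = 0.00452), and the vehicle step was -0.79 ± 0.34 (adjusted p = 0.0748). Without vehicle 2 h replicate 1 the vehicle step was -0.47 (adjusted p = 0.3) and the 2 h difference between the arms 0.66 (adjusted p = 0.397). The vehicle step passed without vehicle 2 h replicate 2 (-1.16, adjusted p = 0.012) or vehicle 8 h replicate 1 (-0.79, adjusted p = 0.0426). From 4 h to 8 h Ccn5 fell by 1.16 ± 0.34 with aldosterone (adjusted p = 0.0134). Each aldosterone pool at 8 h lay under 4, so the size of that fall is uncertain. Set against a level of 4, the aldosterone mean at 4 h was 1.56-fold higher. With vehicle Ccn5 fell by 1.25 ± 0.34 over the same interval (adjusted p = 0.00833). There 2 of the 3 vehicle pools at 8 h lay under 4, so the size of the vehicle fall is uncertain as well. The aldosterone step from 4 h to 8 h was lost without aldosterone 4 h replicate 2 (0.0595), 4 h replicate 3 (0.0579) or 8 h replicate 3 (0.0503).

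Thbs1, which encodes a trimeric matricellular glycoprotein, was lower with aldosterone than with vehicle in group mean at each time without passing the test. At 2 h it had 7.80, 7.74 and 8.01 with aldosterone, against 9.10, 8.03 and 7.96 with vehicle. At 4 h it had 8.78, 8.79 and 8.65 with aldosterone, against 9.17, 9.18 and 9.02 with vehicle. At 8 h it had 8.40, 8.22 and 8.34 with aldosterone, against 8.73, 8.95 and 8.79 with vehicle. The arms were apart at 4 and 8 h and overlapped at 2 h, where the vehicle value of 9.10 belongs to the sample that stood apart. The differences were -0.51 ± 0.21, -0.38 ± 0.21 and -0.50 ± 0.21 (adjusted p = 0.368, 1 and 0.636), and their average was -0.47 ± 0.12 (adjusted p = 0.0877), the 36th largest negative average of 7092.

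Without vehicle 2 h replicate 1 the spread of Thbs1 shrank. The difference was then -0.14 ± 0.11 at 2 h (adjusted p = 0.593), -0.38 ± 0.10 at 4 h (0.164) and -0.50 ± 0.10 at 8 h (0.00975), and the average was -0.34 ± 0.06 (0.00286). With aldosterone 8 h replicate 3 left out as well, the 8 h difference was -0.52 ± 0.11 (0.0305) and the average -0.35 ± 0.06 (0.00623), a setting chosen after seeing the data. With all samples kept, the 8 h difference also passed with array weights (-0.58, adjusted p = 0.00311). The average passed with array weights (0.00153), a second quantile normalization (0.013) and median centring (0.006), and also without vehicle 2 h replicate 2 (0.0458) or 3 (0.0263). Whether Thbs1 was called thus depended on that sample and on the processing. Its second probe set past the filter was close to the filter level, with means of 3.89, 4.41 and 4.22 with aldosterone and 4.18, 4.68 and 4.55 with vehicle at 2, 4 and 8 h.

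Unlike Ccn1, Ccn2 and Ccn3, Thbs1 was higher at 4 h than at 2 h in both arms, by 0.89 ± 0.21 with aldosterone (adjusted p = 0.00312) and by 0.76 ± 0.21 with vehicle (adjusted p = 0.0086). The vehicle step was 1.13 ± 0.11 without vehicle 2 h replicate 1 and lost its call when only the vehicle 2 h and 4 h samples entered the fit (0.12). The steps from 4 h to 8 h were -0.42 ± 0.21 with aldosterone and -0.30 ± 0.21 with vehicle (adjusted p = 0.124 and 0.284).

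Ankrd1, a nuclear and sarcomeric ankyrin-repeat protein that is a YAP target and is abundant in heart muscle, stayed under the filter level in nearly all samples. On the brighter of its 2 probe sets the highest sample, aldosterone 8 h replicate 3, had 6.39, and the other 17 ranged between 3.31 and 4.58 with a median of 3.46. On the dimmer one that same sample had 6.28, and the other 17 ranged between 3.09 and 4.43 with a median of 3.29. In the same sample 6 of 7 cardiac muscle markers were at their highest of the 18: Myh6 had 6.72, where the other 17 had at most 4.49, Actc1 had 6.71 (at most 5.57) and Tnnt2 had 7.40 (at most 6.05). Myl4 had 5.44 (at most 5.00), Myl7 had 4.65 (at most 2.57) and Nppa had 3.83 (at most 2.59), while Tnni3, at 2.24, lay within the range of the others. The summed cardiac list was 8.87 there and 6.31 to 7.33 elsewhere, on a log2 scale. The part of these markers in the Ankrd1 value was not tested. When every probe set was tested without a filter, the 8 h difference was 0.49 ± 0.56 on the brighter Ankrd1 probe set and 0.74 ± 0.58 on the dimmer (adjusted p = 1 for each).

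**Figure D3:**
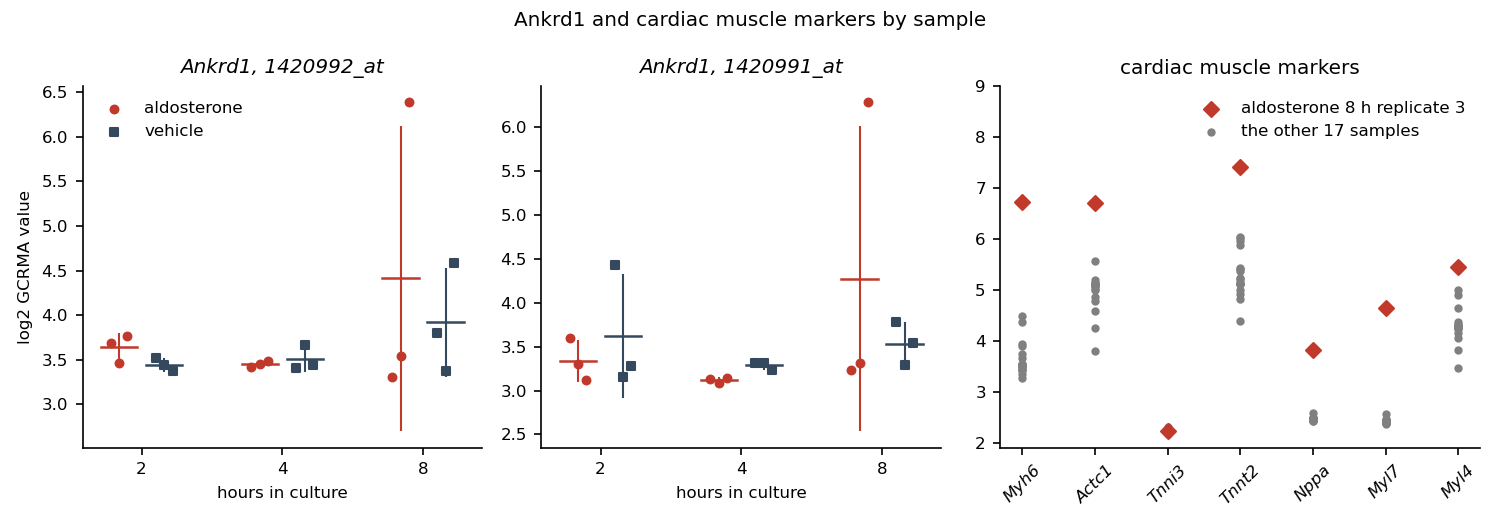
Log2 GCRMA values of the 2 Ankrd1 probe sets by hours in culture, aldosterone left of vehicle (points are pools, lines the mean, bars ± SD), and on the right those of 7 cardiac muscle markers. A diamond marks aldosterone 8 h replicate 3 and grey points the other 17 samples; that pool is highest for both Ankrd1 probe sets and for each marker except Tnni3.

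For the other members, leaving out aldosterone 8 h replicate 3 changed no call against vehicle at 8 h: Ccn2 was then higher by 0.90 ± 0.10 (adjusted p = 0.000108), and the differences of Ccn1 and Ccn3 were 0.23 ± 0.15 (1) and 0.53 ± 0.15 (0.193).

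Time in culture moved more of these genes than aldosterone did, as it did across the array. From 2 h to 4 h, 2 members rose and 2 fell with aldosterone, where 17.3% of all genes rose and 21.3% fell, and 1 rose and 3 fell with vehicle, where 14.6% rose and 25.6% fell. From 4 h to 8 h, 5 members fell and none rose with aldosterone (16.6% of all genes fell and 21% rose), and 4 fell and none rose with vehicle (17% fell and 20.7% rose). The median step from 4 h to 8 h was -0.97 with aldosterone and -0.99 with vehicle over the 6 members, beside 0.05 and 0.03 over all genes. In vehicle from 2 h to 4 h the median over all genes was itself -0.13, and centring each array on its median ended the calls of Ccn2 (adjusted p = 0.15) and Ccn3 in that step. The 2 steps of an arm share their 4 h samples.

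**Figure D4:**
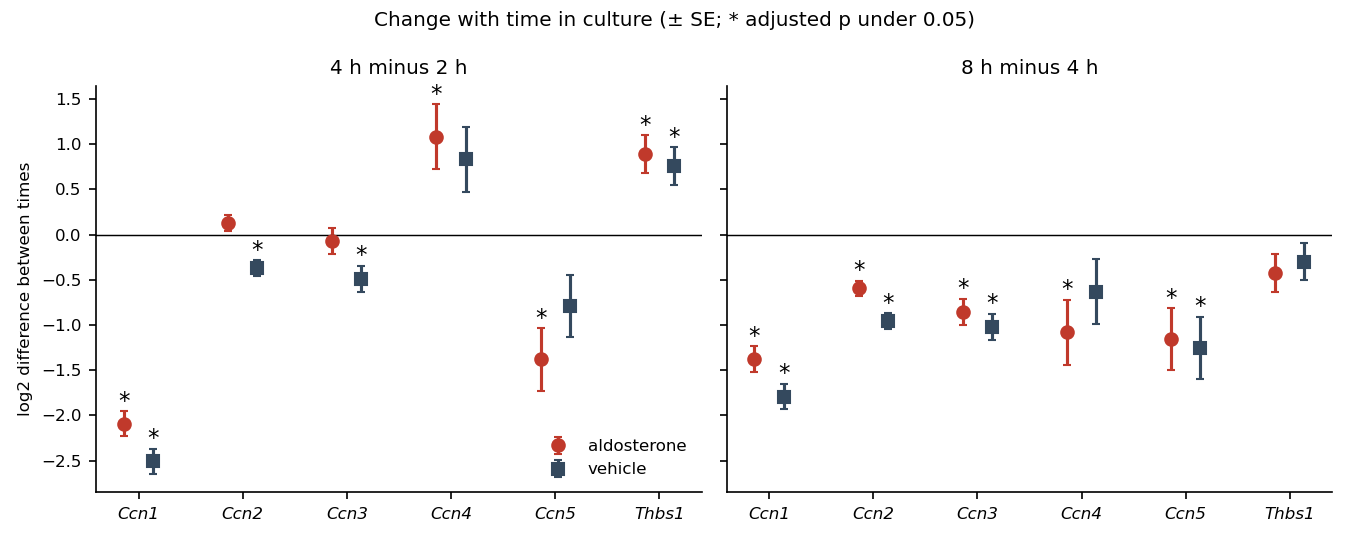
Difference in log2 value between successive times (y axis) for the 6 members tested (x axis), 4 h minus 2 h on the left and 8 h minus 4 h on the right, aldosterone left of vehicle; points are fitted differences of 3 against 3 pools, bars ± SE, and asterisks adjusted p under 0.05. Ccn1 falls by 2.09 and 2.51 in the first step, where Thbs1 lies above 0 in both arms, and all values of the second step lie below 0.

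Markers of several cell types moved with culture time too, to a different extent in each list and step. Of all genes, 21.3% fell with aldosterone and 25.6% with vehicle from 2 h to 4 h. Between 4 h and 8 h, 16.6% fell and 21% rose with aldosterone, and 17% fell and 20.7% rose with vehicle. Of the RNA integrity controls, the Gapdh one differed between 2 h and 8 h. From 4 h to 8 h, 7 of 7 fibroblast markers fell with aldosterone and 6 of 7 with vehicle. In each arm 6 of 9 smooth muscle markers fell and 1 rose, and 5 of 7 macrophage markers fell (median -1.03 with aldosterone and -1.32 with vehicle). Of 8 endothelial markers, 1 rose and none fell with aldosterone, and 1 rose and 1 fell with vehicle. Of 5 adipocyte markers, 1 rose and 1 fell in each arm. In the earlier step, where Ccn1 fell most, 4 of 5 adipocyte, 5 of 8 endothelial and 6 of 7 macrophage markers fell with aldosterone. With vehicle 5 of 5, 5 of 8 and 4 of 7 of these fell. In that step 2 of 9 smooth muscle markers fell in each arm, and 2 of 7 fibroblast markers fell with aldosterone and 3 of 7 with vehicle. The summed fibroblast list had log2 values of 14.59 to 14.81 at 2 h and 13.48 to 13.67 at 8 h with aldosterone, and 14.54 to 15.07 at 2 h and 13.29 to 13.65 at 8 h with vehicle. The gap between 3′ and 5′ Gapdh control probe sets, a sign of RNA integrity, was 0.448 to 0.491 at 8 h with aldosterone and 0.355 to 0.528 with vehicle, and at 2 h it was 0.574 to 0.673 with aldosterone and 0.559 to 0.645 with vehicle. At 4 h the Gapdh gap was 0.462 to 0.746 with aldosterone and 0.49 to 0.79 with vehicle. The same gap for beta-actin was 1.72 to 1.82 at 8 h with aldosterone and 1.51 to 2.02 with vehicle. At 2 h the beta-actin gap was 1.77 to 1.88 with aldosterone and 1.63 to 2.11 with vehicle, so these times overlapped in each arm. The part of these markers in the falls of the CCN genes was not tested. Between aldosterone and vehicle no fibroblast, smooth muscle, endothelial or adipocyte marker passed the test at any time. That test called 1% of all genes at 8 h. The median difference of the adipocyte markers was 0.47 at 4 h and 0.45 at 8 h, beside 0.01 over all genes at both times. At 8 h the summed adipocyte list was 13.90 to 14.16 with aldosterone and 13.48 to 13.61 with vehicle, while the arms overlapped at 2 h and 4 h. The part of this list in the Ccn2 difference was not tested. Of 7 macrophage markers, Mrc1, which encodes the mannose receptor, was higher with aldosterone at 8 h by 1.27 (adjusted p = 0.0335), and its part in the Ccn2 difference was not tested.

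None of the other YAP and TAZ targets tested was called higher with aldosterone beside Ccn2, but few genes of any kind were. The share called higher over all genes was 0.226% at 4 h and 0.86% at 8 h. Such small shares also apply to the lists that follow. Of 19 further genes of a YAP and TAZ target signature, 14 passed the filter; none was called higher with aldosterone at any time, and Gadd45a, a growth arrest gene, was called lower at 8 h by 0.55 (adjusted p = 0.0489), a call lost in 21 of 28 alternatives. Their median difference at 8 h was -0.00, beside 0.01 over all genes. In culture from 4 h to 8 h, 2 of the 14 rose and 6 fell with aldosterone, and 3 rose and 6 fell with vehicle, with medians of -0.23 and -0.01. Of all genes, 21% rose and 16.6% fell with aldosterone over that interval, and 20.7% rose and 17% fell with vehicle. Amotl2, an angiomotin that restrains YAP and is induced by it, fell by 1.56 with aldosterone and 1.51 with vehicle in that step. The coagulation initiator F3 fell by 1.28 with aldosterone and fell by 1.72 with vehicle. The growth factor gene Tgfb2 fell by 1.94 with aldosterone and fell by 1.68 with vehicle, and Crim1, a transmembrane BMP-binding protein, fell by 1.09 with aldosterone and fell by 1.65 with vehicle. Other genes of the list moved the other way: the receptor tyrosine kinase gene Axl rose by 0.30 with aldosterone and 0.44 with vehicle. Igfbp3, an insulin-like growth factor binding protein gene chosen after its values were seen, rose by 2.27 with aldosterone (adjusted p = 6.23e-06) and 1.57 with vehicle (adjusted p = 0.00023).

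Of 25 Hippo pathway genes and TEAD partners, 14 were tested and none passed between aldosterone and vehicle. From 4 h to 8 h, 2 rose and 1 fell with aldosterone, and 3 rose and 2 fell with vehicle. Of all genes, 21% rose and 16.6% fell with aldosterone in that step, and 20.7% rose and 17% fell with vehicle. Wwtr1, which encodes TAZ, rose by 0.45 with aldosterone and 0.57 with vehicle, and the kinase cofactor gene Mob1a rose by 0.38 with aldosterone and 0.53 with vehicle. Wwc2, an upstream activator of the Hippo kinases, fell by 1.10 in each arm. The SRF and MRTF axis, the actin-controlled programme that shares targets with YAP, had 13 of 15 genes tested and none passed between aldosterone and vehicle. In culture 10 of the 13 fell with aldosterone from 4 h to 8 h and 9 fell with vehicle, with medians of -0.74 and -0.51. Srf itself fell by 1.24 with aldosterone and fell by 0.85 with vehicle, and the smooth muscle co-activator gene Myocd fell by 0.74 with aldosterone and fell by 1.03 with vehicle. Cnn1, which encodes the contractile protein calponin, fell by 1.86 with aldosterone and fell by 1.37 with vehicle. Several genes of this list are also smooth muscle markers.

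Receptors and partners of the CCN and thrombospondin proteins were tested in 14 of 15 cases, and none passed between aldosterone and vehicle. From 2 h to 4 h, 4 rose and 4 fell in each arm. Of all genes, 17.3% rose and 21.3% fell with aldosterone in that step, and 14.6% rose and 25.6% fell with vehicle. The integrin subunit gene Itga5 rose by 1.62 with aldosterone and 0.84 with vehicle, and Itgav rose by 0.45 with aldosterone and 0.57 with vehicle. Other integrin subunit genes went down: Itga6 fell by 0.74 with aldosterone and fell by 1.36 with vehicle. Itgb5 fell by 0.48 with aldosterone and fell by 0.61 with vehicle. The thrombospondin receptor gene Cd47 fell by 0.67 with aldosterone and fell by 1.06 with vehicle, and Cd36 fell by 1.08 with aldosterone and fell by 1.03 with vehicle. Itgb3, a subunit of the vitronectin receptor, rose between 4 h and 8 h by 1.99 with aldosterone and 1.52 with vehicle. Over the same interval Itgb5 fell by 1.06 with aldosterone and fell by 0.93 with vehicle. Of a list of 4 other thrombospondins and Ccn6, 3 of 5 genes were tested and none passed between the arms; Thbs2 fell from 4 h to 8 h by 1.48 with aldosterone and 1.02 with vehicle, and Thbs3 fell by 0.66 with aldosterone and fell by 0.73 with vehicle.

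Among 10 tested genes of mechanosensing and focal adhesion, Trpv2, a calcium-permeable cation channel, was higher with aldosterone at 4 h by 1.17 (adjusted p = 0.00662) and on average by 0.56 (0.00876), with a difference of 0.63 at 8 h that did not pass (0.193). No other gene of that list passed between the arms. None of 10 tested read-outs of TGF-beta signalling passed between aldosterone and vehicle. In culture from 4 h to 8 h, 6 of these 10 fell in each arm, where 16.6% of all genes fell with aldosterone and 17% with vehicle. The inhibitory Smad gene Smad7 fell by 1.75 with aldosterone and 1.52 with vehicle. The ligand gene Tgfb3 fell by 1.77 with aldosterone and fell by 1.33 with vehicle.

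**Figure D5:**
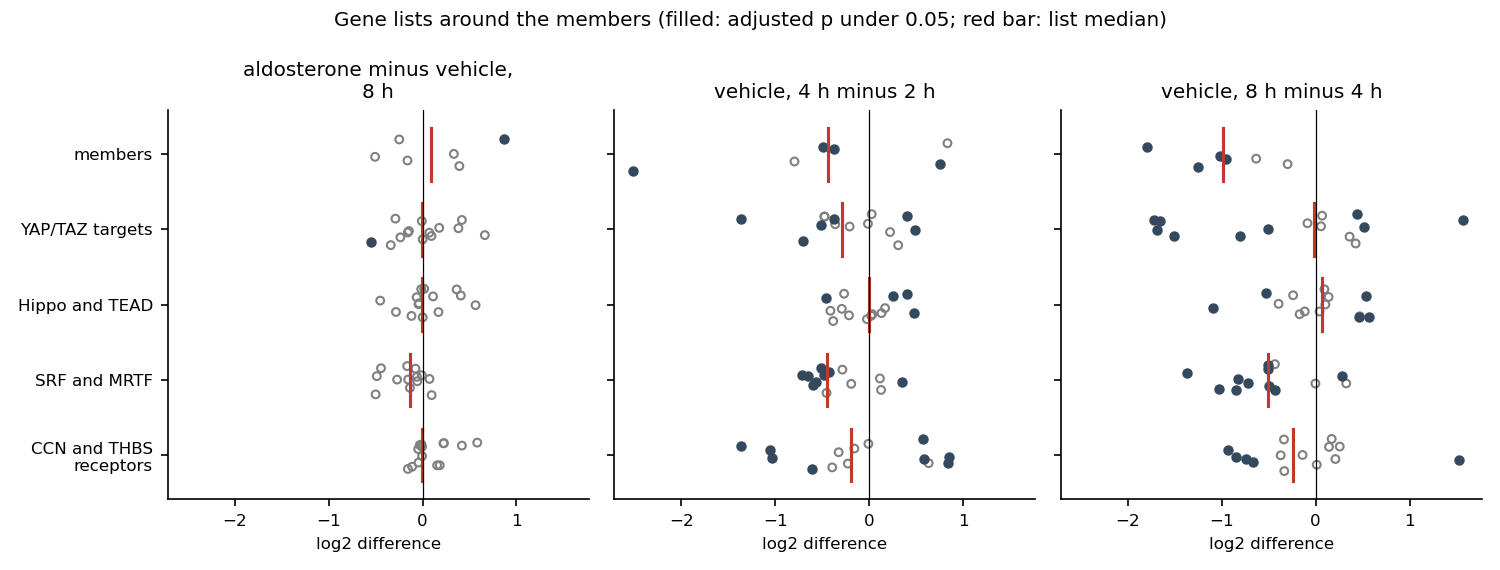
Log2 differences (x axis) of the genes of 5 lists (y axis) for aldosterone minus vehicle at 8 h, for vehicle at 4 h minus 2 h and for vehicle at 8 h minus 4 h; each circle is a gene, filled where the adjusted p is under 0.05, and the red bar is the median of the list. On the left 1 filled circle is Ccn2 (0.86) and 1 is Gadd45a (-0.55), and in vehicle from 4 h to 8 h the medians are -0.99 for the 6 members and -0.01 for the other YAP and TAZ targets.

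Across the 18 samples each member had its own closest companions by Pearson correlation, a description in which the points share arrays, time and treatment. Ccn1 was nearest to the immediate early and interferon-regulated transcription factor genes Atf3 (0.994), Irf1 (0.989) and Nr4a2 (0.986). Ccn2 was nearest to Klf9 (0.972) and the clock gene Per2 (0.961), followed by Ifi30 (0.917). Ccn3 was nearest to Osbpl1a (0.965), Anln (0.963) and Chka (0.958), and Ccn5 to Wnk1 (0.957), Anapc13 (0.955) and Grb14 (0.954). Thbs1 was nearest to Trio (0.91), Zcchc14 (0.896) and Fam126a (0.892), and the dim Ccn4 to Has1 (0.84), Fnbp4 (0.798) and Poldip3 (0.781). Between members the correlation was 0.888 for Ccn2 with Ccn3, 0.719 for Ccn1 with Ccn2 and -0.321 for Ccn2 with Thbs1.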

How the data were processed

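GCRMA produced the log2 values that the authors deposited, per the submitters' processing notes; neither its version nor its settings appear in the sources used here. The 22690 rows included 64 control probe sets. The platform annotation gave 1 gene to 20380 probe sets, several to 691 and none to 1606; 13 control probe sets that it assigns to genes were left out. A gene was represented by its probe set with the highest mean among those with log2 above 4 in at least 3 of 18 samples. One mean per group was fitted for all 6 groups together in limma 3.58.1 (R 4.3.3), with moderated variances that follow an intensity trend; Benjamini-Hochberg adjustment ran over 7092 genes, with a threshold of 0.05, and the procedure was tested on simulated data. Precision is limited by having 3 arrays in a group. The members, gene lists, tests and the naming rule (all members, up to 4 genes per list by smallest p in the aldosterone average or a vehicle step, the 3 closest companions of a member) were chosen with earlier results of these data known. Same-numbered replicates of the 2 arms correlated between -0.186 and 0.282 in 9 comparisons, so numbers were not treated as pairs. Raw array files were not used here.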

Additional observations from a re-analysis of the deposited data

Results flagged for a closer look

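The aldosterone difference of Ccn2 changed with time: its value at 8 h minus that at 2 h was 0.87 on the log2 scale (limma, adjusted p = 0.00249). Ccn1 was singled out because, on its brighter probe set, the aldosterone pools all lay below the vehicle pools at 2 h (-0.50) and all above them at 8 h (0.33). The limma test of that change missed the threshold (adjusted p = 0.132), and on the second Ccn1 probe set the arms overlapped at 2 h. Ccn3 had all aldosterone pools below vehicle at 2 h (-0.20) and all above at 4 h (0.23); the change between these times was 0.42 ± 0.21 (adjusted p = 0.845). Ankrd1, which did not enter the comparisons, had a signal in aldosterone 8 h replicate 3 of 6.39 on the brighter probe set and 6.28 on the dimmer one, above each vehicle sample, of which the highest was 4.58 and 4.43.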

How the results depend on the processing

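Over 54 values of the members (a member in a comparison), 1457 of 1545 recomputed values kept their direction and side of the threshold, 26 lost a call, 26 gained one and 36 changed sign. The number of members called higher at 4 h became 0 without the intensity trend, with a second quantile normalization, with median centring and with only the groups compared, and 0 to 1 when each replicate was left out. The number called lower at 8 h became 1 (Thbs1) with array weights and without both samples that stood apart, and 0 to 1 over left-out replicates; for the average it became 1 (Thbs1) with quantile normalization, centring, array weights and without both samples, and 0 to 1 over left-out replicates. The number called for differences between times became 0 without the trend, with quantile normalization and with centring. For vehicle at 4 h against 2 h the number higher became 2 with quantile normalization, centring and array weights, 0 with only the groups compared, and 1 to 2 over left-out replicates, and the number lower became 1 with centring. For aldosterone at 4 h against 2 h the number higher became 1 without a filter, with a filter at 6 and with only the groups compared, and 1 to 2 over left-out replicates; at 8 h against 4 h the number lower ranged over 3 to 6. Over all genes, the number called was 5 at 2 h (0 to 54 over the alternatives), 17 at 4 h (5 to 42), 71 at 8 h (33 to 222), 78 for the average (53 to 260), 11 for differences between times (8 to 29) and 2852 for vehicle at 4 h against 2 h (1331 to 4100). The causes were not tested.

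Signs turned only for differences that did not pass, with reported values between -0.25 and 0.33. At 2 h Ccn2 became 0.0178, 0.049, 0.0163 and 0.0138 and Ccn4 0.0705, 0.0066, 0.231 and 0.0744 with quantile normalization, centring, array weights and without both samples; over left-out replicates they ranged from -0.031 to 0.0214 and from -0.37 to 0.22, and Ccn5 from -0.0352 to 0.66. At 4 h Ccn4 became -0.008 with array weights, and over left-out replicates Ccn4 ranged from -0.23 to 0.45, Ccn5 from -0.41 to 0.0539 and Ccn1 from -0.15 to 0.0502. At 8 h Ccn5 ranged over left-out replicates from -0.44 to 0.23. For the average Ccn5 became 0.0033, 0.0839 and 0.106 with quantile normalization, array weights and without both samples, and Ccn4 0.0824 without both; over left-out replicates Ccn5 ranged from -0.15 to 0.10 and Ccn4 from -0.17 to 0.0587. The fit with only the groups compared was not run for the average or the test between times, which need all groups. With the replicate number as a block, no member's call changed; Ccn2 had adjusted p of 0.0284 at 4 h and the counts of members called were 1 at 4 h and 1 at 8 h. The dim genes Ccn4, Ccn5 and Ankrd1 lie near the filter level, and their differences are imprecise.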
